A study of Mus musculus with 16 samples.

Results

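Natural killer (NK) cells of the lymph node that drains a mammary tumour were compared between mice given diphtheria toxin (DT) and mice given PBS, gene by gene. The comparison rests on 8 of the study's 16 RNA-seq libraries: 4 from DT mice and 4 from PBS mice, chosen by the tissue and treatment in their labels. The other 8 are the matching NK cells of the lung. All mice, controls included, had the genotype Cdh1F/F;Trp53F/F;Foxp3GFP-DTR on an FVB/N background, so cells that express Foxp3, the defining transcription factor of regulatory T (Treg) cells, carry the DT receptor, and DT kills them. All also carried an orthotopically transplanted KEP mammary tumour of 100 mm2. DT mice received 25 ug of DT and PBS mice received PBS, both at T = 0 and T = 7, in a unit of time that the labels do not state. Ages are not given in the labels, and mice that lack the receptor but received DT are not analysed here, so loss of Treg cells and other actions of the toxin cannot be told apart. The sort kept 5000 to 10000 live CD45+ CD3- NKp46+ DX5+ cells per library from the axillary node, and libraries were made with the Smart-seq2 protocol. The study's design text calls the 4 libraries of a group biological replicates. Whether a lymph node and a lung library of the same number came from one mouse is not stated.

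NK cells are lymphocytes that kill infected, stressed or malignant cells without prior priming, by releasing perforin and granzymes, and that secrete interferon gamma. Their activity is set by a balance of germline-encoded activating and inhibitory receptors and by cytokines such as IL-2, IL-12 and IL-15. Treg cells restrain NK cells in part by taking up IL-2 through the high-affinity receptor chain CD25 and by making TGF-beta. As NK cells mature they lose markers of the immature CD27-bearing stage, leave lymph nodes along sphingosine-1-phosphate and gain granzymes and receptors such as KLRG1.

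Total counts of the lymph node libraries lay between 6646920 and 8952451. The sort markers were high in all 8: Ncr1, which encodes NKp46, lay between 5176 and 7917 CPM (counts normalised to library size), and Itga2, which encodes the DX5 antigen, between 62.9 and 134 CPM. Cd3e, part of the T cell receptor complex that the gate leaves out, lay between 6.82 and 30.2 CPM. Other transcripts of that complex were more abundant in the same libraries. Cd3d lay between 107 and 259 CPM, Cd3g between 96.0 and 227 CPM, and the receptor constant gene Trbc1 between 804 and 2807 CPM. Low Cd3e is therefore no sign that transcripts of the complex are absent. Foxp3 was below the filter on low counts, between 0 and 1.19 CPM, and since the gate removes CD3+ cells this level is no measure of Treg depletion.

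The DT libraries did not form a tight group. The mitochondrial share of counts was 4.93%, 4.18%, 4.01% and 1.24% in DT 1 to 4, against 1.05% to 1.68% in the PBS libraries (exact two-sided permutation p = 0.114, where 0.0286 is the smallest that 4 against 4 allows). Genes of 6 noncoding classes (lincRNA, antisense, processed transcript, sense intronic, snoRNA and loci still to be experimentally verified) took 5.73%, 4.46%, 3.82% and 2.09% of counts in DT 1 to 4 and 1.62% to 2.09% in the PBS libraries. DT 4 therefore lay within or at the edge of the PBS range on both measures, and DT 1 lay farthest from it. Malat1, a nuclear noncoding RNA, alone reached 18216 CPM on TMM-scaled library sizes in DT 1, against 7284, 5765 and 2284 in DT 2 to 4 and 2197 to 2841 in the PBS libraries. Of the 2036 genes at which DT 1 to 3 all lay above every PBS library, DT 4 also did so at 34.6%, whereas DT 2 did so at 90.5% of the 778 genes set apart by the other 3 DT libraries. DT 4 is therefore set against the PBS range for the main genes. The part that the library shares play in the results was not tested.

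**Figure D1:**
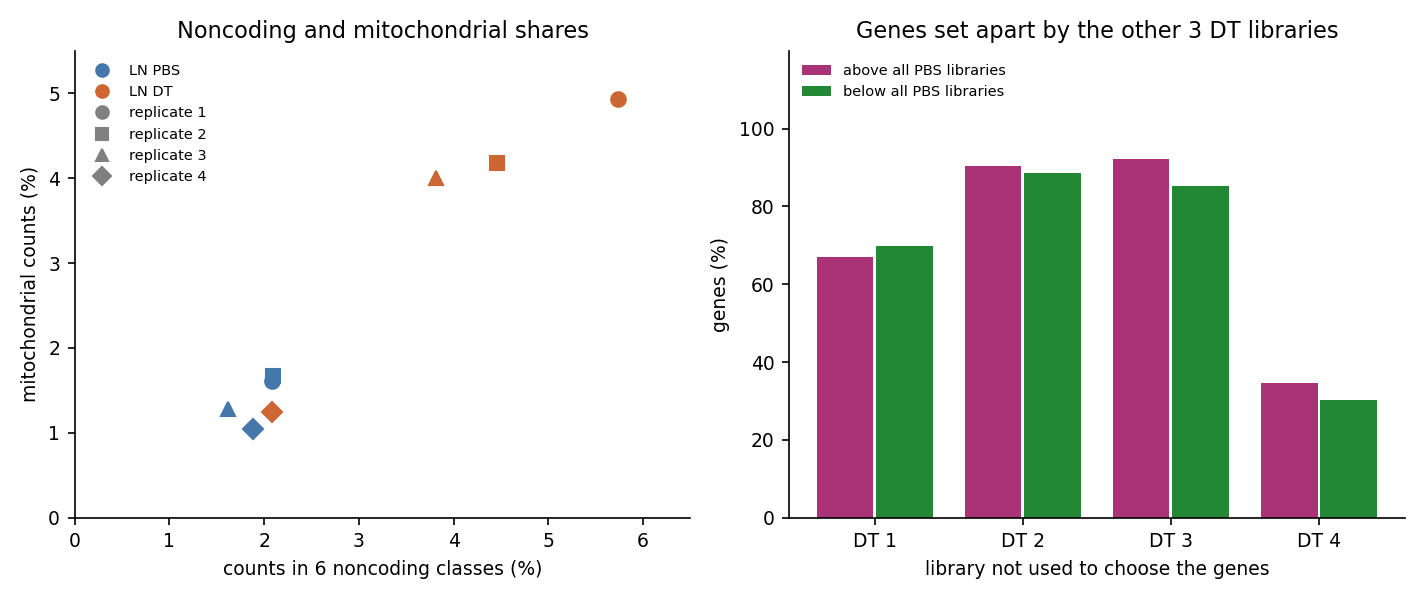
Left: percent of counts in mitochondrial genes against percent in 6 noncoding classes, 1 point per lymph node library (blue PBS, orange DT, marker shape for the replicate number). Right: for each DT library, the percent of genes set above or below all PBS libraries by the other 3 DT libraries at which it also lay beyond all PBS libraries. DT 4 sits among the PBS libraries on the left, and its bars on the right, at 34.6% and 30.3%, are the lowest of the 4 DT libraries.

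Of 13940 genes tested, 9 were called higher with DT (0.0646%) and 0 lower (0%) at an adjusted p under 0.05 in edgeR's quasi-likelihood test. At an unadjusted p under 0.05, 1155 genes were higher (8.29%) and 491 lower (3.52%). DT and PBS libraries were fully apart at 704 genes with DT above (5.05%) and at 477 with DT below (3.42%). Over all tested genes the fold change was above 0 at 7617 and below 0 at 6293, with a median of 0.08 on the log2 scale. The called genes were Rgs1, Lilrb4a, Cd300lf, Ttn, E2f7, AI593442, Jchain, Ighg1 and Ighe, and each was higher in all 4 DT libraries than in all 4 PBS libraries. AI593442 and Ighe were near 0 in the PBS and lung libraries and could meet the filter on low counts only through all 4 DT libraries. The separation of AI593442 and Ighe is therefore set by the filter. All 9 kept a positive fold change in every alternative in which they were tested. The number of calls was less stable: it was 0 with the mitochondrial share as a covariate and 0 without PBS 3 or without PBS 4, 1 without PBS 1, 5 without DT 3, and 74 higher and 48 lower without DT 4. Fitted on the 8 lymph node libraries alone, 38 of 12392 genes were higher (0.307%) and 3 lower (0.0242%), and DESeq2 called 262 higher and 61 lower.

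**Figure D2:**
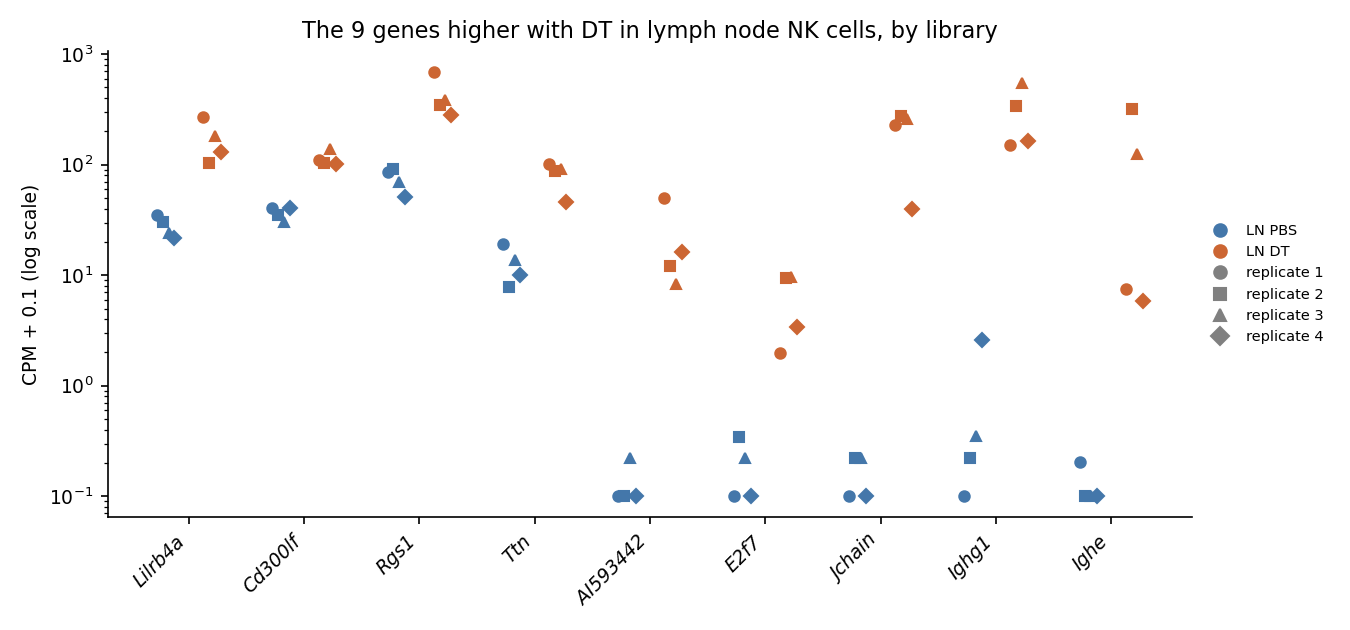
CPM plus 0.1 on a log axis for the 9 called genes in each lymph node library (blue PBS, orange DT, marker shape for the replicate number). At each gene the 4 orange points lie above the 4 blue ones, and Ighe runs from 5.72 CPM in DT 4 to 318 CPM in DT 2. At AI593442 and Ighe this separation is set by the filter on low counts.

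Inhibitory receptors and mitosis were the NK gene lists with the highest median log2 fold changes, 1.32 and 1.21 in the fit of all 16 libraries, and without DT 4 their order turned, with 1.19 and 1.39. The 2 inhibitory receptors that passed the test both carry tyrosine-based inhibitory motifs that recruit phosphatases. Lilrb4a, a receptor of the leukocyte immunoglobulin-like family (ENSMUSG00000062593, chr10:51480679-51496613, GRCm38), measured 35.3, 29.9, 23.9 and 21.6 CPM in PBS 1 to 4 and 269.5, 104, 182 and 130.4 CPM in DT 1 to 4. It rose by 2.63 ± 0.41 (log2, SE, n = 4 per group, adjusted p = 0.0131). The lowest DT library lay well above the highest PBS library, and DT 4 lay above DT 2. A close paralog lies next to Lilrb4a, so how reads were divided between the pair is uncertain. Cd300lf, a lipid-binding receptor of the CD300 family (ENSMUSG00000047798, chr11:115116214-115133992), measured 40.7, 34.8, 30.5 and 40.4 CPM in PBS 1 to 4 and 110.0, 103, 139 and 100.4 CPM in DT 1 to 4. It rose by 1.63 ± 0.25 (log2, SE, n = 4 per group, adjusted p = 0.0131), with the 4 DT libraries close to one another.

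Other members of this list did not pass the adjusted threshold. Klrg1, an inhibitory receptor for cadherins that marks mature NK cells, measured 158, 240.3, 129.9 and 189.7 CPM in PBS 1 to 4 and 466, 348, 317 and 415 CPM in DT 1 to 4, a fold change of 1.11 ± 0.30 (log2, SE, n = 4 per group, adjusted p = 0.177). Tigit, a receptor for the nectin family member CD155, measured 97.9, 45.2, 64.6 and 56.6 CPM in PBS 1 to 4 and 306, 98.2, 102 and 453 CPM in DT 1 to 4, a fold change of 1.86 ± 0.51 (log2, SE, n = 4 per group, adjusted p = 0.181). At both genes the groups did not overlap, and DT 4 was among the 2 highest libraries. Entpd1, the ectonucleotidase CD39, measured 50.5, 51.5, 32.5 and 32.6 CPM in PBS 1 to 4 and 44.9, 85.4, 87.7 and 202 CPM in DT 1 to 4 and overlapped through DT 1. Lag3, a checkpoint receptor, likewise overlapped at DT 1, with 11.99, 12.8, 3.72 and 8.48 CPM in PBS 1 to 4 and 8.22, 25.9, 27.2 and 60.3 CPM in DT 1 to 4. Ctla4, a checkpoint receptor best known on T cells, measured 7.57, 2.30, 5.20 and 0 CPM in PBS 1 to 4 and 42.5, 9.77, 12.9 and 13.4 CPM in DT 1 to 4. The 4 highest values of Ctla4 were those of the DT libraries. Pdcd1, which encodes PD-1, stayed near the limit of detection in both groups, between 0 and 7.78 CPM, and Cd160 was level, between 204 and 339 CPM. Over the whole list 20 of 21 members were tested, 17 were above 0 and 3 below, the median log2 fold change was 1.32, 2 passed the adjusted threshold, and 8 lay above and 0 below all PBS libraries. Here and for the lists below, the shares over all tested genes were 5.05% above and 3.42% below all PBS libraries. Without DT 1 the list's median was 1.29, and without DT 4 it was 1.19. Siglecg, a B cell lectin in this list, was high only in the libraries with B cell transcripts described below, with 9.04, 15.9, 5.20 and 1.70 CPM in PBS 1 to 4 and 10.5, 156, 129 and 6.38 CPM in DT 1 to 4.

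Rgs1 also rose. It encodes a GTPase-activating protein that shortens signalling from chemokine receptors and is linked to retention of lymphocytes in tissue (ENSMUSG00000026358, chr1:144242296-144249242). It measured 85.7, 90.8, 70.3 and 51.02 CPM in PBS 1 to 4 and 691, 347, 389 and 281 CPM in DT 1 to 4. The fold change was 2.52 ± 0.39 (log2, SE, n = 4 per group, adjusted p = 0.0131), and the lowest DT library was DT 4. In the other 16 tested members of the G protein list no gene passed. Over that list 17 of 17 members were tested, 5 were above 0 and 12 below, the median log2 fold change was -0.24, 1 passed the adjusted threshold, and 2 lay above and 1 below all PBS libraries.

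Genes of cell division were higher as a group in count and median, although only the transcription factor E2f7 passed the test. Dividing cells express DNA replication genes in S phase under the E2F factors and mitotic genes later through the DREAM and MuvB complexes, which act at CHR elements. Promoters of division genes were read because most members of these lists had fold changes of one sign. Of the 6 promoters read, those of Mki67, E2f7 and Dtl, which hold the most matches, are printed. The Cenpe window holds 1 CCAAT match, and the Cit and Tyms windows hold no match to any of the motifs searched. Each printed window is the RefSeq window of 300 bases (250 before to 50 after the start, build GRCm38.p6, gene's strand), with matches on either strand in capitals. The motifs searched were the CHR, spelled TTTGAA, the CCAAT box, spelled by its name, and the E2F core, spelled TTCCCGC. The reverse complement of each motif was searched too, and no matches overlap in the windows shown. They are Mki67 at chr7:135716330-135716629 on the minus strand, E2f7 at chr10:110745189-110745488 on the plus strand and Dtl at chr1:191575495-191575794 on the minus strand.
Mki67: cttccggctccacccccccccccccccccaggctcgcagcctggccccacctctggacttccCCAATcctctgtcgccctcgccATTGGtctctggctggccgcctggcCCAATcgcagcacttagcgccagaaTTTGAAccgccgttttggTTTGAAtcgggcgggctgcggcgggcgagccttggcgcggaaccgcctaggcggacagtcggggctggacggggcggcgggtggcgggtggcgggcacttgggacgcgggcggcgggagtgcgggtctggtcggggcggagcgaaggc
E2f7: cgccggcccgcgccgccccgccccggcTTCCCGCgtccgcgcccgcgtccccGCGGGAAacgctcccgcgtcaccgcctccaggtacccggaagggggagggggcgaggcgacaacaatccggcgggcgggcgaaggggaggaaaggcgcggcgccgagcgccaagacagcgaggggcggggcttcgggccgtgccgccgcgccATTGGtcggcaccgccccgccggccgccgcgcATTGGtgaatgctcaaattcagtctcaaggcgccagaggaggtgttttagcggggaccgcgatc
Dtl: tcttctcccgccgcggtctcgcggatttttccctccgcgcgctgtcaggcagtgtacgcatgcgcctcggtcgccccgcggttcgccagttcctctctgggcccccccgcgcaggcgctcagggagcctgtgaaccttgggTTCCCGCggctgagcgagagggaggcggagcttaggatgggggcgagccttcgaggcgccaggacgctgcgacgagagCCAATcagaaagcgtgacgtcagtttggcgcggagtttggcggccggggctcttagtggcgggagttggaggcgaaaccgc
The Mki67 window holds 2 CHR and 3 CCAAT matches, the E2f7 window 2 E2F cores and 2 CCAAT matches, and the Dtl window 1 of each of the last 2. CHR was present in 73.3% of the 60 promoters of the mitosis list, in 17.9% of all 32851 promoters and in 12.7% of those of tested genes. The CCAAT box was present in 73.3% of the mitosis promoters against 37.4% of all and 37.9% of those of tested genes. The E2F core was present in 40% of the 40 promoters of the DNA replication list, in 4.60% of all and in 8.11% of those of tested genes. Among the 19 promoters of the inhibitory receptor list, CHR was present in 36.8%, the CCAAT box in 21.1% and the E2F core in 5.26%. These matches describe sequence and show no binding. The lists were chosen for division genes, many of which are textbook targets of these elements.

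E2f7, an atypical E2F that represses E2F targets late in S phase and is itself induced by E2F (ENSMUSG00000020185, chr10:110745439-110787384), measured 0, 0.242, 0.124 and 0 CPM in PBS 1 to 4 and 1.88, 9.38, 9.63 and 3.30 CPM in DT 1 to 4. With 3 counts over all PBS libraries and 192 over the DT libraries, the DT-to-PBS ratio was 72.0, with a 95% counting interval of 24.3 to 352 that covers counting error only. The adjusted p was 0.0270. Mki67, the proliferation marker Ki-67, measured 5.78, 14.4, 12.9 and 16.3 CPM in PBS 1 to 4 and 68.5, 43.6, 50.9 and 27.2 CPM in DT 1 to 4, a fold change of 1.94 ± 0.40 (log2, SE, n = 4 per group, adjusted p = 0.0893). Dtl, a substrate receptor of the CUL4 ubiquitin ligase in S phase, measured 8.52, 15.9, 6.20 and 9.28 CPM in PBS 1 to 4 and 46.3, 48.99, 50.7 and 25.5 CPM in DT 1 to 4, a fold change of 2.10 ± 0.39 (log2, SE, n = 4 per group, adjusted p = 0.0633). Cenpe, a kinetochore motor, measured 2.73, 5.45, 3.97 and 5.66 CPM in PBS 1 to 4 and 49.7, 26.1, 31.2 and 12.2 CPM in DT 1 to 4. Cit, the citron kinase of cytokinesis, measured 2.63, 9.94, 6.82 and 7.35 CPM in PBS 1 to 4 and 33.6, 53.6, 45.4 and 13.4 CPM in DT 1 to 4. At these 4 genes the groups did not overlap, and DT 4 was the lowest DT library each time. Tyms, thymidylate synthase, measured 31.4, 11.9, 31.7 and 15.95 CPM in PBS 1 to 4 and 201, 87.7, 83.7 and 42.9 CPM in DT 1 to 4, also without overlap.

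In the mitosis list 69 of 69 members were tested, 64 were above 0 and 5 below, the median log2 fold change was 1.21, 0 passed the adjusted threshold, and 23 lay above and 0 below all PBS libraries. The median was 1.26 without DT 1 and 1.39 without DT 4. In the DNA replication list 42 of 42 members were tested, 30 were above 0 and 12 below, the median log2 fold change was 0.52, 0 passed the adjusted threshold, and 5 lay above and 1 below all PBS libraries. In bulk samples such as these, more cells that express a gene and more RNA per cell cannot be told apart. Among cell cycle regulators 33 of 34 members were tested, 22 were above 0 and 11 below, the median log2 fold change was 0.37, 1 passed the adjusted threshold, and 6 lay above and 5 below all PBS libraries. Of all tested genes, 5.05% lay above and 3.42% below. Ccnd2, the D-type cyclin of early G1, was lower in every DT library, with 1016, 1659, 1019 and 1244 CPM in PBS 1 to 4 and 296, 499, 436 and 786 CPM in DT 1 to 4 and a fold change of -1.29 ± 0.28 (log2, SE, n = 4 per group, adjusted p = 0.104). Ccne2, the cyclin of S phase entry, measured 2.73, 4.48, 8.30 and 3.62 CPM in PBS 1 to 4 and 57.4, 27.1, 28.3 and 12.7 CPM in DT 1 to 4, without overlap.

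Il2ra, which encodes CD25 and is induced in NK cells by IL-2, IL-12 and IL-18, measured 8.73, 6.79, 7.68 and 8.14 CPM in PBS 1 to 4 and 53.6, 25.9, 28.5 and 40.2 CPM in DT 1 to 4. Its fold change was 2.24 ± 0.50 (log2, SE, n = 4 per group, adjusted p = 0.108), and all 4 DT libraries, DT 4 included, were at least as high as 25.9 CPM against at most 8.73 CPM in PBS. Gadd45g, a stress-responsive adaptor upstream of p38 that is induced by IL-12 and IL-18, measured 36.8, 54.4, 27.3 and 41.9 CPM in PBS 1 to 4 and 147, 129.8, 108 and 157 CPM in DT 1 to 4, a fold change of 1.76 ± 0.38 (log2, SE, n = 4 per group, adjusted p = 0.0981). Il10, a cytokine that dampens myeloid and T cell responses, had 0 counts in all PBS libraries and 178 in the DT libraries, with 0, 0, 0 and 0 CPM in PBS 1 to 4 and 7.37, 7.53, 3.49 and 5.39 CPM in DT 1 to 4. Against a floor of 3 counts over the PBS group this was at least 66.8-fold higher, and its adjusted p was 0.139. None of these 3 passed among all genes in the fit of all 16 libraries, and all 3 passed in the fit of lymph node libraries alone (adjusted p = 0.0152, 0.0191 and 0.0152 for Il2ra, Gadd45g and Il10).

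Among the chemokines, Ccl9, a ligand of CCR1, measured 6.94, 4.36, 4.34 and 7.81 CPM in PBS 1 to 4 and 52.6, 22.6, 22.3 and 23.004 CPM in DT 1 to 4, a fold change of 2.35 ± 0.47 (log2, SE, n = 4 per group, adjusted p = 0.0766). Ccl4, a chemokine made by activated lymphocytes, measured 116, 378, 158 and 277 CPM in PBS 1 to 4 and 487, 464, 548 and 493 CPM in DT 1 to 4, without overlap and with an unadjusted p of 0.00199. Ifng, the signature NK cytokine, measured 44.8, 78.5, 52.9 and 70.9 CPM in PBS 1 to 4 and 85.2, 108, 122 and 102 CPM in DT 1 to 4. Its groups did not overlap, but the unadjusted p was 0.157. Ltb, lymphotoxin beta, was lower in every DT library, with 885, 950.5, 1198 and 889 CPM in PBS 1 to 4 and 373, 397, 394 and 726 CPM in DT 1 to 4, a fold change of -1.05 ± 0.28 (log2, SE, n = 4 per group, adjusted p = 0.177). Over the list of cytokines and chemokines 20 of 25 members were tested, 14 were above 0 and 6 below, the median log2 fold change was 0.61, 0 passed the adjusted threshold, and 6 lay above and 1 below all PBS libraries.

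Genes induced by interferon gamma were mostly above 0. Ly6a, the surface antigen Sca-1, measured 3.68, 13.4, 7.44 and 0.679 CPM in PBS 1 to 4 and 145, 109, 127 and 103 CPM in DT 1 to 4, a fold change of 4.26 ± 0.87 (log2, SE, n = 4 per group, adjusted p = 0.0820). Gbp8 and Gbp4 encode guanylate-binding proteins, GTPases of cell-autonomous defence. Gbp8 measured 2.73, 2.91, 4.83 and 4.52 CPM in PBS 1 to 4 and 41.3, 17.03, 27.1 and 31.04 CPM in DT 1 to 4, a fold change of 2.95 ± 0.58 (log2, SE, n = 4 per group, adjusted p = 0.0725). Gbp4 measured 296, 227, 226 and 163 CPM in PBS 1 to 4 and 705, 442, 521 and 403 CPM in DT 1 to 4. All 3 kept the groups apart, and DT 4 was within or close to the range of the other DT libraries at each. Over the list 34 of 35 members were tested, 25 were above 0 and 9 below, the median log2 fold change was 0.30, 0 passed the adjusted threshold, and 6 lay above and 0 below all PBS libraries. For type I interferon genes 33 of 34 members were tested, 13 were above 0 and 20 below, the median log2 fold change was -0.12, 0 passed the adjusted threshold, and 0 lay above and 0 below all PBS libraries.

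Granule genes differed in direction, and none passed. Gzma, granzyme A, measured 5779.8, 9604, 3908 and 5835 CPM in PBS 1 to 4 and 36965, 14059.8, 13155 and 17968 CPM in DT 1 to 4, a fold change of 1.71 ± 0.44 (log2, SE, n = 4 per group, adjusted p = 0.151). Gzmb, granzyme B, measured 771, 1011, 396 and 544 CPM in PBS 1 to 4 and 1493, 1280.0, 1466 and 2539 CPM in DT 1 to 4, a fold change of 1.32 ± 0.32 (log2, SE, n = 4 per group, adjusted p = 0.139). Both sets of libraries were apart, with DT 1 highest for Gzma and DT 4 highest for Gzmb. Gzmm, granzyme M, measured 43.5, 66.04, 74.6 and 73.3 CPM in PBS 1 to 4 and 23.5, 18.5, 16.97 and 26.3 CPM in DT 1 to 4, a fold change of -1.59 ± 0.35 (log2, SE, n = 4 per group, adjusted p = 0.0981), and every DT library was below every PBS library. Gzmm passed in the fit of lymph node libraries alone (adjusted p = 0.0379). Prf1, perforin, differed among the DT libraries more than between groups, with 1627, 1621, 1482 and 1526 CPM in PBS 1 to 4 and 323, 1274, 1569.7 and 3556 CPM in DT 1 to 4. Its fold change was 0.10 ± 0.52 (log2, SE, n = 4 per group, adjusted p = 0.964), and without DT 4 it was -0.57. Over the list 22 of 27 members were tested, 12 were above 0 and 10 below, the median log2 fold change was 0.04, 0 passed the adjusted threshold, and 3 lay above and 1 below all PBS libraries.

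**Figure D3:**
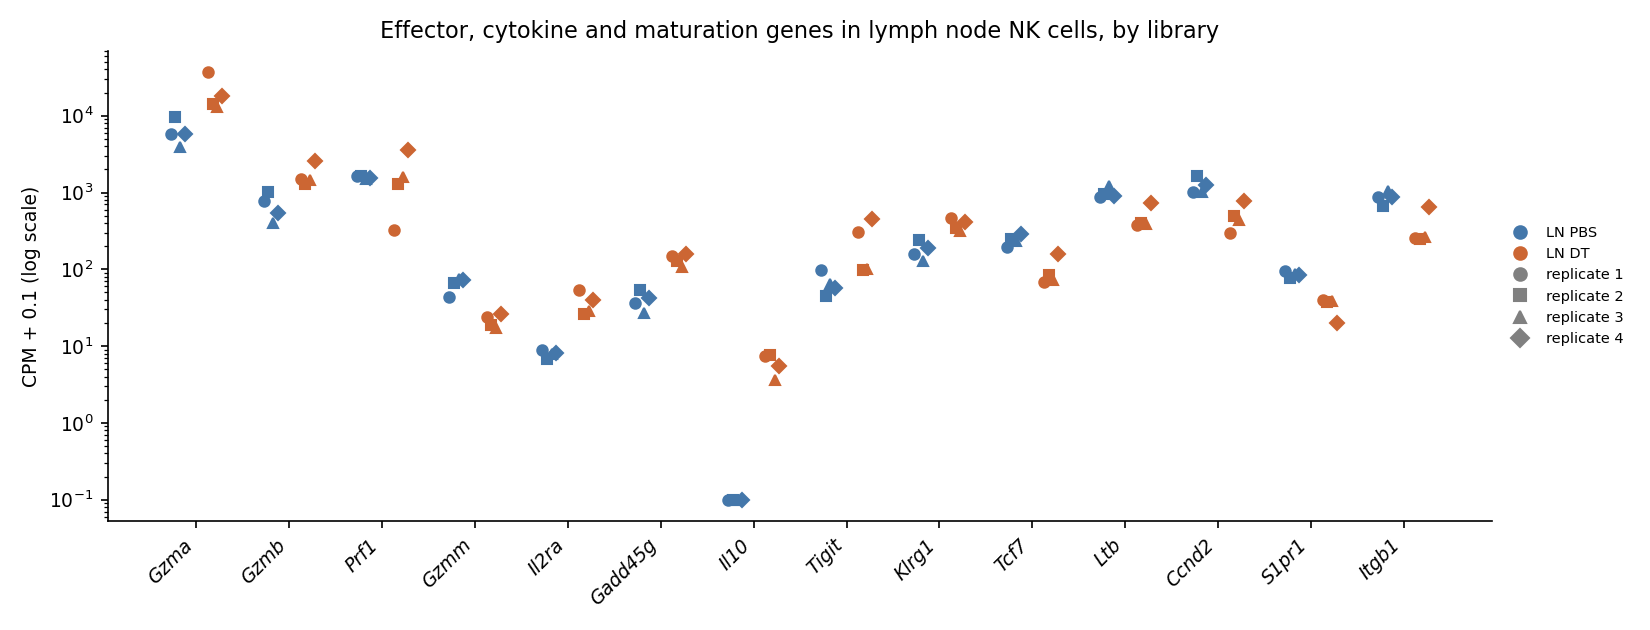
CPM plus 0.1 on a log axis for effector, cytokine and maturation genes in each lymph node library (blue PBS, orange DT, marker shape for the replicate number). Prf1 runs from 323 CPM in DT 1 to 3556 CPM in DT 4, whereas Gzma, Gzmb, Il2ra, Gadd45g, Il10, Tigit and Klrg1 are above, and Gzmm, Tcf7, Ltb, Ccnd2, S1pr1 and Itgb1 below, the PBS libraries in all 4 DT libraries.

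Markers of the immature stage were mostly lower, without a call. Tcf7, which encodes the transcription factor TCF-1, measured 193, 251, 231 and 290.5 CPM in PBS 1 to 4 and 67.7, 83.7, 71.6 and 159.9 CPM in DT 1 to 4, a fold change of -1.33 ± 0.39 (log2, SE, n = 4 per group, adjusted p = 0.211). Lef1, its relative, measured 131, 68.7, 127 and 127 CPM in PBS 1 to 4 and 23.1, 21.8, 31.04 and 67.03 CPM in DT 1 to 4. Cd27, the receptor that names the stage, measured 328, 342, 424 and 366 CPM in PBS 1 to 4 and 274, 236, 207 and 282 CPM in DT 1 to 4, a small difference with no overlap. For the 3 genes DT 4 was the DT library nearest the PBS range. Over the list 19 of 20 members were tested, 6 were above 0 and 13 below, the median log2 fold change was -0.55, 0 passed the adjusted threshold, and 2 lay above and 6 below all PBS libraries. Ctla2a, a cysteine protease inhibitor in this list, was higher, with 474, 610.1, 491 and 489 CPM in PBS 1 to 4 and 2300.4, 878, 782 and 766 CPM in DT 1 to 4. The median of the list was -0.83 without DT 4. Over the list of mature markers 20 of 20 members were tested, 12 were above 0 and 8 below, the median log2 fold change was 0.09, 0 passed the adjusted threshold, and 2 lay above and 1 below all PBS libraries. Tbx21, which encodes the maturation factor T-bet, was lowest in DT 1, with 537, 760.5, 694 and 725 CPM in PBS 1 to 4 and 51.7, 470.1, 473 and 748 CPM in DT 1 to 4. Eomes, its partner factor, lay between 128 and 263 CPM with overlapping groups.

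Receptors of trafficking and adhesion differed gene by gene. The genes given with values by library below were all lower with DT, although the trafficking list was split between directions. Going the other way, Ltb4r1 had 0 counts over the PBS libraries and 46 over the DT libraries. Against a floor of 3 counts over the PBS group it was at least 17.3-fold higher. S1pr1, the sphingosine-1-phosphate receptor that lymphocytes use to leave the node, measured 95.9, 77.5, 87.4 and 85.3 CPM in PBS 1 to 4 and 39.4, 37.2, 39.1 and 19.8 CPM in DT 1 to 4. Its fold change was -1.35 ± 0.36 (log2, SE, n = 4 per group, adjusted p = 0.172), and DT 4 was the lowest library. Cxcr3 and Ccr7, chemokine receptors for inflamed tissue and for the node, were below the PBS range in all 4 DT libraries. Cxcr3 measured 281, 268, 419.6 and 316 CPM in PBS 1 to 4 and 94.1, 81.3, 85.3 and 185 CPM in DT 1 to 4, and Ccr7 measured 73.4, 54.2, 87.9 and 37.2 CPM in PBS 1 to 4 and 14.9, 26.3, 25.7 and 26.2 CPM in DT 1 to 4. Itgb1, the integrin beta 1 chain, measured 878, 676, 1041 and 881 CPM in PBS 1 to 4 and 257, 249.8, 267 and 645 CPM in DT 1 to 4, a fold change of -1.29 ± 0.38 (log2, SE, n = 4 per group, adjusted p = 0.216). Over the trafficking receptors 23 of 26 members were tested, 12 were above 0 and 11 below, the median log2 fold change was 0.14, 0 passed the adjusted threshold, and 4 lay above and 4 below all PBS libraries. Over the adhesion list 23 of 25 members were tested, 8 were above 0 and 15 below, the median log2 fold change was -0.23, 0 passed the adjusted threshold, and 1 lay above and 2 below all PBS libraries.

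**Figure D4:**
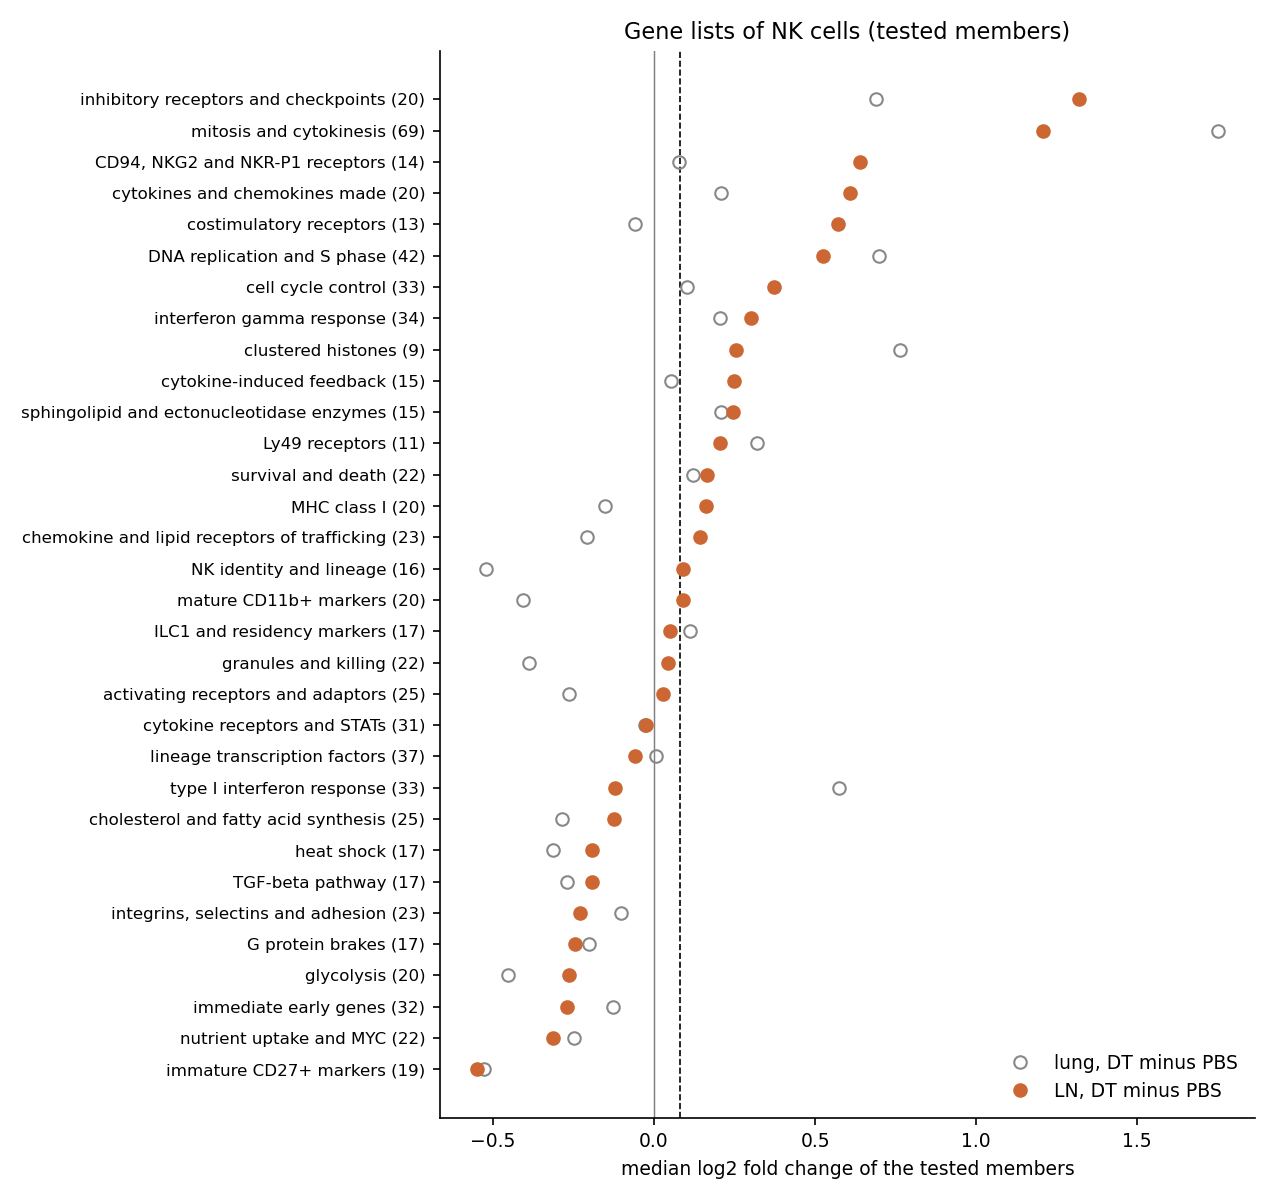
Median log2 fold change of the tested members of each NK gene list, DT minus PBS, for lymph node (filled) and lung (open), with the number tested in brackets and a dashed line at the median of all tested genes (0.08). Inhibitory receptors (1.32) and mitosis (1.21) lie farthest to the right in the lymph node and immature markers (-0.55) farthest to the left.

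The activating receptor and NK identity lists had medians near that of all genes, whereas the median of the CD94, NKG2 and NKR-P1 list was higher. Of all tested genes, 5.05% lay above and 3.42% below all PBS libraries. For activating receptors and adaptors 25 of 25 members were tested, 13 were above 0 and 12 below, the median log2 fold change was 0.03, 0 passed the adjusted threshold, and 1 lay above and 0 below all PBS libraries. For NK identity genes 16 of 18 members were tested, 11 were above 0 and 5 below, the median log2 fold change was 0.09, 0 passed the adjusted threshold, and 2 lay above and 0 below all PBS libraries. For Ly49 receptors 11 of 11 members were tested, 7 were above 0 and 4 below, the median log2 fold change was 0.21, 0 passed the adjusted threshold, and 0 lay above and 0 below all PBS libraries. For CD94, NKG2 and NKR-P1 receptors 14 of 15 members were tested, 11 were above 0 and 3 below, the median log2 fold change was 0.64, 0 passed the adjusted threshold, and 5 lay above and 0 below all PBS libraries, and that median was 0.16 without DT 1. Cd244, the receptor 2B4, measured 605, 456, 493 and 499 CPM in PBS 1 to 4 and 1826, 756, 787 and 678 CPM in DT 1 to 4, with DT 1 far above the other libraries.

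Outside these lists, Ttn and AI593442 were called. Ttn encodes titin, the giant protein of the muscle sarcomere (ENSMUSG00000051747, chr2:76703980-76982547). It measured 19.03, 7.75, 13.5 and 9.95 CPM in PBS 1 to 4 and 101, 88.1, 90.96 and 45.5 CPM in DT 1 to 4 and rose by 2.69 ± 0.38 (log2, SE, n = 4 per group, adjusted p = 0.0109). AI593442, an uncharacterised protein-coding gene (ENSMUSG00000078307, chr9:52673042-52679780), measured 0, 0, 0.124 and 0 CPM in PBS 1 to 4 and 50.2, 12.1, 8.18 and 15.96 CPM in DT 1 to 4. With 1 count over the PBS libraries and 598 over the DT libraries, the ratio was 673, with a 95% counting interval of 120 to 26627, and the adjusted p was 0.0157. DT 4 was above the whole PBS range at both genes, which at AI593442 is set by the filter on low counts.

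Genes of smallest p that did not pass were named only where the groups were apart, so their separation is a condition of the choice. Vmp1, an autophagy protein of the endoplasmic reticulum whose last exons overlap the primary transcript of the microRNA miR-21, measured 495, 276, 426 and 462 CPM in PBS 1 to 4 and 5027, 1648, 1712 and 740.0 CPM in DT 1 to 4, a fold change of 2.46 ± 0.46 (log2, SE, n = 4 per group, adjusted p = 0.0633). Marf1, a ribonuclease of RNA surveillance, measured 14.2, 37.2, 29.2 and 21.04 CPM in PBS 1 to 4 and 145, 134, 98.4 and 66.2 CPM in DT 1 to 4, a fold change of 2.13 ± 0.40 (log2, SE, n = 4 per group, adjusted p = 0.0660). Nav2, a neuron navigator protein, measured 1.79, 1.82, 1.86 and 1.47 CPM in PBS 1 to 4 and 14.4, 12.4, 12.4 and 5.72 CPM in DT 1 to 4. Slpi, a secreted inhibitor of neutrophil elastase, measured 1.26, 0, 3.22 and 0.226 CPM in PBS 1 to 4 and 21.1, 82.5, 112 and 18.3 CPM in DT 1 to 4. These were the higher ones. Among lower genes, Cym, which encodes the digestive protease chymosin, measured 23.8, 38.4, 21.2 and 27.3 CPM in PBS 1 to 4 and 3.26, 6.87, 8.54 and 8.48 CPM in DT 1 to 4, a fold change of -2.02 ± 0.41 (log2, SE, n = 4 per group, adjusted p = 0.0766). Ifitm10 measured 134, 178, 199 and 283 CPM in PBS 1 to 4 and 51.1, 70.4, 68.3 and 119.8 CPM in DT 1 to 4, and Ssbp2, a single-stranded DNA binding protein, measured 90.02, 45.2, 88.4 and 63.1 CPM in PBS 1 to 4 and 19.5, 25.2, 22.5 and 20.9 CPM in DT 1 to 4. The other lower genes named by the rule were Cxxc5, Tsta3, Gsto1, Tecr and Dhrs3, with fold changes between -1.69 and -0.90 and adjusted p between 0.139 and 0.150.

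Genes chosen after their values were seen, from the fit of lymph node libraries alone, include a pair at the same locus. Art2b, a T cell ADP-ribosyltransferase of the cell surface, measured 0, 0.363, 0 and 0 CPM in PBS 1 to 4 and 9.94, 18.2, 14.1 and 18.2 CPM in DT 1 to 4 and had 3 counts in PBS against 478 in DT. Its pseudogene neighbour Art2a-ps measured 0, 0, 0.124 and 0 CPM in PBS 1 to 4 and 7.37, 8.71, 10.2 and 13.8 CPM in DT 1 to 4. The pair is close in sequence, so the division of reads between them is uncertain. Mgll, monoglyceride lipase, was lower, with 32.2, 53.1, 50.4 and 50.9 CPM in PBS 1 to 4 and 5.997, 14.9, 6.02 and 9.69 CPM in DT 1 to 4 and an adjusted p of 0.0177 in that fit. Plac8 measured 12.2, 24.7, 11.5 and 10.3 CPM in PBS 1 to 4 and 52.1, 141, 199.9 and 34.1 CPM in DT 1 to 4, with DT 4 the lowest DT library.

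Genes of antibody-secreting cells were higher in the DT libraries and made up 3 of the 9 calls. Jchain, the joining chain of polymeric antibodies (ENSMUSG00000067149, chr5:88519809-88527891), measured 0, 0.121, 0.124 and 0 CPM in PBS 1 to 4 and 229, 275, 258 and 39.7 CPM in DT 1 to 4. With 2 counts in PBS and 5932 in DT, the ratio was 3338, with a 95% counting interval of 924 to 27570, and the adjusted p was 0.0244. Ighg1, the IgG1 heavy chain (ENSMUSG00000076614, chr12:113325240-113330523), measured 0, 0.121, 0.248 and 2.49 CPM in PBS 1 to 4 and 149.7, 338, 553 and 165 CPM in DT 1 to 4, a fold change of 8.68 ± 1.46 (log2, SE, n = 4 per group, adjusted p = 0.0251). Ighe, the IgE heavy chain (ENSMUSG00000087642, chr12:113271174-113273248), measured 0.105, 0, 0 and 0 CPM in PBS 1 to 4 and 7.37, 318, 125 and 5.72 CPM in DT 1 to 4. With 1 count in PBS and 3537 in DT, its ratio was 3981, with an interval of 714 to 157276, and the adjusted p was 0.00805. The 3 genes were above the PBS range in every DT library, and Ighe was far higher in DT 2 and DT 3 than in DT 1 and DT 4. At Ighe the separation from PBS is set by the filter on low counts.

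Other antibody classes were not called, though some were higher in DT libraries. Ighg2b had 0 CPM in PBS 1 to 4 and 1.20, 0.396, 6.62 and 1.76 CPM in DT 1 to 4. Ighg3 measured 1.68, 2.54, 1.36 and 2.04 CPM in PBS 1 to 4. In DT 1 to 4 it measured 5.14, 19.9, 27.9 and 1.21 CPM, overlapping at DT 4. Ighm, the IgM heavy chain, overlapped, with 604, 461, 929 and 686 CPM in PBS 1 to 4 and 312, 446, 606 and 411 CPM in DT 1 to 4. Igkc, the kappa light chain, measured 32.5, 59.4, 46.8 and 41.3 CPM in PBS 1 to 4 and 568, 901, 1228 and 163 CPM in DT 1 to 4, without overlap, and its adjusted p was 0.142. Igkc passed in the fit of lymph node libraries alone (adjusted p = 0.00961). Igha, the IgA heavy chain, was at or near 0 in all 8 libraries, between 0 and 1.49 CPM. Of 218 immunoglobulin variable genes in the table, 103, 154, 161 and 93 had a count in DT 1 to 4, against 34 to 56 in the PBS libraries. Over the plasma cell list 17 of 23 members were tested, 16 were above 0 and 1 below, the median log2 fold change was 2.82, 3 passed the adjusted threshold, and 8 lay above and 0 below all PBS libraries, and its summed level was 849.5 to 1380 CPM in PBS and 1273 to 3634 CPM in DT. Members such as Jchain and Ighe, with 2 and 1 counts in PBS, could meet the count filter in the lymph node only through the DT libraries. The tally of signs and the median of this list are therefore partly set by the filter.

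The summed level of B cell genes was highest in DT 2 and DT 3. Over the list 22 of 22 members were tested, 20 were above 0 and 2 below, the median log2 fold change was 2.13, 0 passed the adjusted threshold, and 6 lay above and 1 below all PBS libraries. Summed, the B cell list was 1518 to 1968 CPM in PBS and 1546, 3711, 4146 and 1536 CPM in DT 1 to 4. Siglech, a lectin of plasmacytoid dendritic cells, measured 1.26, 2.30, 0 and 3.28 CPM in PBS 1 to 4 and 2.57, 78.96, 198 and 0.110 CPM in DT 1 to 4. Cd209a, a lectin of dendritic cells, had 0 counts in all PBS libraries and in DT 1 and DT 4, with 0, 0, 0 and 0 CPM in PBS 1 to 4 and 0, 7.66, 16.8 and 0 CPM in DT 1 to 4. Over the plasmacytoid list 13 of 15 members were tested, 11 were above 0 and 2 below, the median log2 fold change was 1.49, 0 passed the adjusted threshold, and 1 lay above and 0 below all PBS libraries. Trac, the T cell receptor alpha constant gene, overlapped, with 16.6, 31.02, 27.8 and 30.1 CPM in PBS 1 to 4 and 31.2, 20.6, 22.9 and 25.8 CPM in DT 1 to 4. Trbc1 overlapped too, at a higher level, with 921, 1100, 804 and 1028 CPM in PBS 1 to 4. In DT 1 to 4 it measured 2807, 1334, 1023 and 891 CPM. Jchain and Ighg1 of DT 4 lay above the PBS range while its B cell sum stayed inside the PBS range. The part that RNA of other cells plays in the results for NK genes was not tested.

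**Figure D5:**
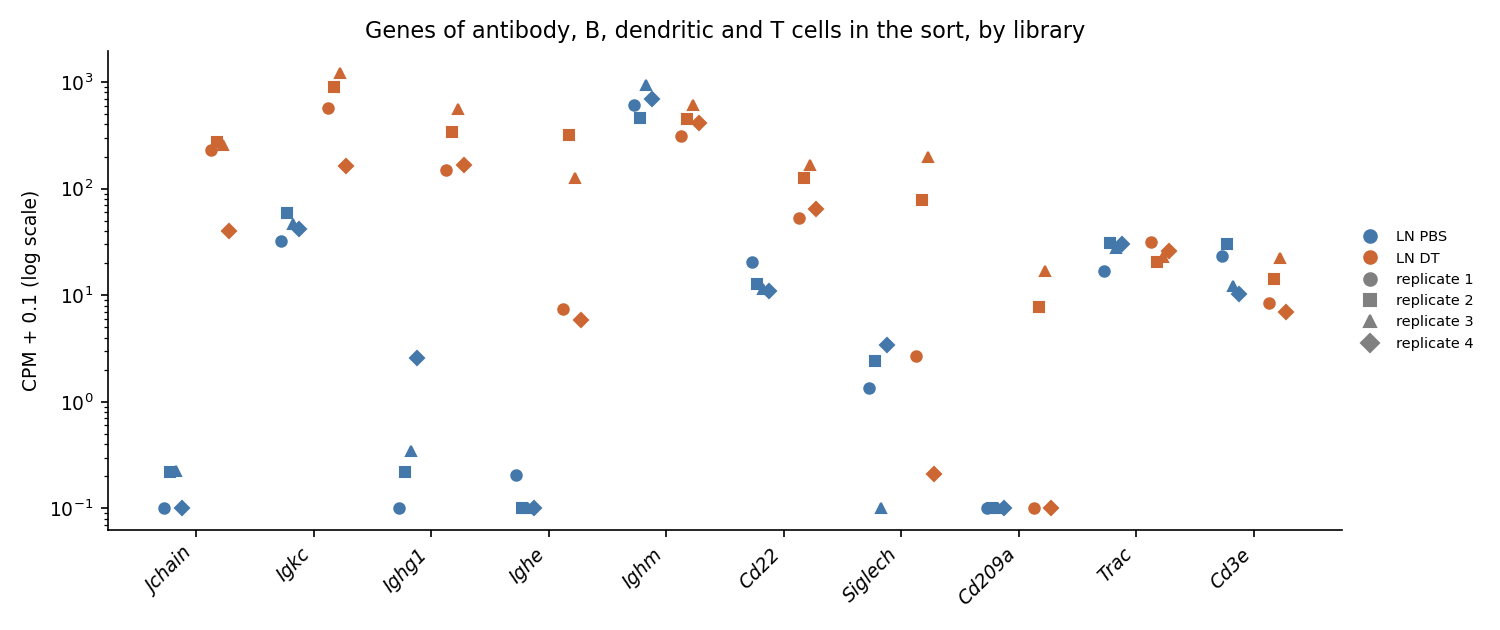
CPM plus 0.1 on a log axis for genes of antibody-secreting, B, dendritic and T cells in each lymph node library (blue PBS, orange DT, marker shape for the replicate number). Jchain, Igkc, Ighg1 and Ighe are above the PBS libraries in all 4 DT libraries, Siglech is far above them in DT 2 and DT 3, and Ighm, Trac and Cd3e overlap.

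Noncoding RNA was shifted upward relative to coding genes. Among 11555 protein-coding genes tested, the median log2 fold change was -0.01, with 493 genes above and 458 below all PBS libraries. Across the 6 noncoding classes, 1754 genes were tested, the median was 0.92, and 160 genes were above and 4 below. All 17 mitochondrially encoded genes tested had a fold change above 0, with a median of 1.44, but only 1 lay above all PBS libraries. The mitochondrial share of DT 4, 1.24%, was inside the PBS range of 1.05% to 1.68%. The level of a gene went with its fold change. The 2788 genes with the lowest expression had a median of 0.56, and the 2788 with the highest -0.08. The median level of the lowest set was 1.23 CPM. A gene at such a level can meet the filter on low counts through the DT libraries alone. The part that the filter plays in this trend and in the noncoding median was not tested.

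The same toxin effect was available in lung NK cells of the same study, and no library is shared between the effects. Same-numbered DT libraries of the tissues deviated together, with correlations of 0.18 to 0.41, so the effects may share mice and are not taken as independent. Of the 9 genes called in the lymph node, 6 had a lung fold change above 0 (Ighe among them, near 0 CPM), 4 had an unadjusted p under 0.05 there and 2 were called, Lilrb4a and Ttn. Among all 13940 tested genes, 8 were called higher and 7 lower in lung. The lung shares of all genes above 0 and at that unadjusted p are not given here, so those counts are not read as an excess. In lung, the log2 fold change was 2.21 ± 0.40 for Lilrb4a, 2.60 ± 0.39 for Ttn, 1.18 ± 0.37 for Rgs1 and 0.56 ± 0.24 for Cd300lf (SE). Of the antibody genes, Jchain had a lung value of -0.42 ± 1.29 and Ighg1 of -0.89 ± 1.35 (SE). Lung means were 3.27 CPM in PBS and 2.06 CPM in DT for Jchain, and 2.46 and 1.06 CPM for Ighg1. Ighe measured 0.0310 CPM in PBS and 0.0359 CPM in DT lung, so few reads that no fold is given. These low levels do not show that the antibody genes were unchanged in lung. The difference between the effects of the tissues was called at 1 of 13940 genes with the lymph node effect higher (0.00717%) and at 0 lower (0%). At an unadjusted p under 0.05 it was 401 and 185. The call was Zfp882, a zinc finger gene, at 11.1 ± 6.0 CPM in PBS and 15.4 ± 5.18 CPM in DT lymph node and at 16.6 ± 9.67 CPM in PBS and 0.0717 ± 0.143 CPM in DT lung (SD, n = 4 each). The lung DT level rests on so few reads that no fold is given (adjusted p of the difference = 0.0215). With a replicate block the difference between tissues was called at 0 genes, so Zfp882 did not pass there. None of the 9 genes differed between tissues at the adjusted threshold, with adjusted p from 0.268 to 1.00. The mitosis list had a median of 1.21 in lymph node and 1.75 in lung, and the inhibitory receptor list 1.32 and 0.69.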

How the data were processed

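The deposited table holds raw counts per gene, whole numbers for 49671 Ensembl genes in 16 libraries. Per the submitters' processing notes, the authors used HISAT2, HTSeq and the build GRCm38; their versions and strand setting: not given in the sources used here. All columns were mapped to a sample by name.

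Genes kept by filterByExpr of edgeR (minimum count 10, minimum total 15), 13940 in all, entered a model of 4 group means in edgeR 4.0.16 under R 4.3.3 (TMM factors, glmQLFit with robust=TRUE, glmQLFTest). The residual degrees of freedom were 12, and the common BCV was 0.621. All 16 libraries share the estimate of spread. P-values are two-sided and Benjamini-Hochberg adjusted over all tested genes. The contrasts used were DT against PBS in lymph node, the same in lung, and their difference. Intervals for ratios of counts are exact at 95% and cover counting error only.

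Genes named were every called gene, the 10 higher and 10 lower of smallest p that did not pass (10 CPM or more on average where higher, groups apart), 3 members per NK list, 2 per other list, and a fixed set of markers; other named genes were chosen after their values were seen, and the values of some genes are not reported here. The members and the 47 gene lists were chosen with earlier results of these data known. Lists are described by counts and medians, with no test. Alternatives covered scaling, filter, tool, lymph node libraries alone, a mitochondrial covariate, a replicate block and each library left out, with DESeq2 1.42.0 and limma 3.58.1 (voom). Promoters came from RefSeq tables on GRCm38.p6. The main script was tested on simulated data with known changes between DT and PBS in the lymph node. It recovered 1 of 73 genes changed 2-fold, 27 of 65 changed 4-fold and 38 of 62 changed 8-fold, with 1 false call. A gene that did not pass is therefore not shown to be unchanged.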

Additional observations from a re-analysis of the deposited data

Results flagged for a closer look

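The effect of DT on Zfp882 differed between tissues by 8.10 on the log2 scale in the interaction test. The lung DT mean was 0.0717 ± 0.143 CPM (SD), so the size of this fitted difference depends on the prior count and is no measure of the change.

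The other values are libraries that stood apart from the remaining 3 of their group by Dixon's test at 95%, run on named genes with a group mean of at least 1 CPM and on library measures. The minimum of 1 CPM was chosen after the values were seen. By chance about 1 group in 20 is marked. Among all tested genes, without that minimum, the share was 9.33% in the PBS and 10.6% in the DT group, so the basis differs from that of the named genes. DT 1 stood apart at Cd244 (1826 CPM), Ctla4 (42.5 CPM), Icam2 (45.2 CPM), Ccl9 (52.6 CPM), Ctla2a (2300.4 CPM), Scd2 (12.5 CPM) and Csnk2a1 (203.7 CPM), and in the share of its 50 top genes, 24.4%. DT 4 stood apart at Ifi27l2a (17.2 CPM), Gzmb (2539 CPM), Ltb (726 CPM), Tgif1 (52.4 CPM), S1pr1 (19.8 CPM), Itgb1 (645 CPM) and Anxa2 (1899.8 CPM). At Ltb, Itgb1 and Anxa2 it was the DT library nearest the PBS libraries. PBS 2 stood apart at Ifi27l2a (43.6 CPM), Ctla2a (610.1 CPM), Tcrg-C4 (30.8 CPM), Hsp90ab1 (2059 CPM), Ski (73.9 CPM) and Ncr1 (5326 CPM). PBS 3 stood apart at Krt19 (5.08 CPM), Csnk2a1 (86.4 CPM), Hbb-bs (12.6 CPM) and Malat1 (2197 CPM).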

How the results depend on the processing

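The 9 calls kept their sign in every setting in which they were tested (8 of them with a minimum mean of 5 CPM), but the counts depended on the processing, and the cause was not tested. Genes higher and lower with DT numbered 23 and 0 without a gene filter, 38 and 3 in lymph node libraries alone, 262 and 61 with DESeq2, 2084 and 1652 with limma-voom and 0 and 0 with the mitochondrial share as covariate. They ranged from 0 to 74 and from 0 to 48 when 1 library was left out. They were 22 and 2 without both DT libraries numbered 1 and, in an alternative chosen after seeing the data, 93 and 64 without both numbered 4. The difference between tissues was called at 18 higher and 1 lower with DESeq2, 0 higher with voom, 0 without both numbered 4, and 0 to 3 with 1 library left out.

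Pairing by replicate number was checked by correlating deviations from group means. Same-numbered lymph node PBS and DT libraries correlated at 0.04, 0.15, 0.10 and 0.03, below the level taken as pairing at 3 numbers, and 3 of 4 correlated best with their own number. Same-numbered lymph node and lung libraries correlated at 0.41, 0.19, 0.23 and 0.18 in the DT mice, above that level (0.1) at every number and best with their own number at 3 of 4, and at -0.022, 0.19, -0.030 and -0.0012 in the PBS mice. By this measure same-numbered libraries of the tissues went together at every number in the DT mice and only at number 2 in the PBS mice. The best match across tissues was not counted for the PBS mice. The difference between tissues comes from a fit that does not pair libraries by number. DT 1 also had the highest Malat1 level in each tissue, 18216 CPM in lymph node and 17164 CPM in lung. Whether same-numbered libraries share a mouse or only library properties was not tested. With a replicate block 7 genes were higher, 6 of them among the 9, 0 were lower, and the difference between tissues was called at 0.

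Signs of these named genes reversed (log2). Ncr1 was -0.018 with total counts, -0.13 with voom, -0.13 with the covariate, -0.13 without both DT 1, and -0.18 to 0.098 with 1 library left out. Prf1 was -0.20 with the replicate block, -0.087 with voom, -0.59 without both DT 4, and -0.57 to 0.42 with 1 library left out. Siglecf was 0.025 with the replicate block, 0.20 with voom, and -2.61 to 3.39 with 1 library left out. Cd3e was 0.23 with voom. With the covariate, Klra1 was -0.11, Hbb-bs -0.23, Pecam1 0.052, Tbx21 0.22 (-1.03 to -0.31 with 1 library left out) and Zfp882 -0.42. With 1 library left out, Pdcd1 ranged from -0.31 to 1.94 and S100a9 from -4.96 to 2.30.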
